A study of Homo sapiens with 4 samples.

Results

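NF-kB is a family of dimeric transcription factors and the inhibitors that hold it back. Of 10 genes of this family chosen by name, 5 encode the subunits (NFKB1, NFKB2, REL, RELA and RELB) and 5 encode inhibitors that are themselves NF-kB targets or partners (NFKBIA, NFKBIB, NFKBIE, NFKBIZ and TNFAIP3). The choice was made with earlier results of these data known. All 10 were found by symbol among the 55764 gene names listed, and 9 of them passed the filter on low values and were among the 14306 genes tested. Their RNA was measured by bulk RNA-seq in TE5, a human oesophageal squamous cell carcinoma line. There were 2 control libraries, from cells that carried the empty backbone, and 2 ETS1 libraries, from cells with a CMV-driven vector that expresses human ETS1, a transcription factor. Both vectors were delivered by lentivirus and the cells were selected, the genotype of the controls is labelled WT, and 1 line was used. The labels do not say that the replicates were separate infections or cultures, so p-values measure the spread between these libraries, which may be technical.

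In resting cells the subunits are kept in the cytoplasm by IkB proteins, which bind them through ankyrin repeats. Receptors such as those for TNF and IL-1 activate the IKK kinase complex, which marks IkB for degradation and frees RELA and NFKB1 dimers to enter the nucleus. Among the genes they switch on are NFKBIA and TNFAIP3, which end the signal, so these transcripts are widely read as feedback. A slower branch uses RELB with the processed product of NFKB2. NFKBIZ is a nuclear member of the IkB family that acts as a co-regulator of a subset of inflammatory genes.

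Levels are given in FPKM (read fragments divided by gene length and by library size), so levels of different genes can be compared. Changes were tested with limma on log2(FPKM + 1), a scale that understates the change of low genes, and a gene was called at a Benjamini-Hochberg adjusted p under 0.05. The reads recovered from the tables numbered 40356611 and 44119456 in the controls and 57269793 and 56502715 in the ETS1 libraries. ETS1 itself was at 0.491 and 0.509 FPKM in the controls and 1.84 and 1.87 FPKM in the ETS1 libraries, a ratio of 3.71. The epithelial markers summed to between 16.1 and 16.9 FPKM over the 4 libraries, but single markers moved in opposite directions. KRT8 was at 3.91 and 3.87 FPKM in the controls and 6.48 and 6.59 FPKM with ETS1, and CDH1 at 0.571 and 0.567 against 1.08 and 0.916 FPKM. KRT18 was at 10.2 and 10.5 against 8.35 and 8.29 FPKM, EPCAM at 1.37 and 1.36 against 0.915 and 1.12 FPKM, and KRT19 was near 0. Of the 4 squamous markers, SOX2 was at 2.72 and 3.13 FPKM in the controls and 3.52 and 3.82 FPKM with ETS1. The other squamous markers, KRT5, KRT14 and TP63, were undetected in the controls (0 FPKM) and did not exceed 0.0165 FPKM with ETS1. PTPRC, a marker of leukocytes, stayed at or under 0.0117 FPKM, and of the fibroblast markers COL1A1 reached 2.88 FPKM while DCN stayed at or under 0.0122 FPKM. The summed fibroblast markers ran from 2.07 to 2.21 FPKM in the controls and from 2.86 to 2.94 FPKM in the ETS1 libraries, and the part of any of these markers in the changes below was not tested. In bulk RNA, fewer cells that express a gene and less of its RNA per cell cannot be told apart.

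Of the 9 tested members, 5 were called higher (NFKB1, RELB, NFKBIA, NFKBIZ and TNFAIP3), 2 lower (NFKBIB and NFKBIE) and 2 were not called (NFKB2 and RELA). Over all genes tested, 59.1% were called, 30.7% higher and 28.4% lower, so a call by itself is common in these libraries. The groups did not overlap for 7 of the 9 tested members, against 82.0% of all genes tested. The sizes set the members apart from one another: an FPKM ratio of at least 2 was reached by NFKBIZ and TNFAIP3, while 1.58% of all genes tested were higher by that ratio. In the authors' deposited table, 5 of the 10 members were called higher and 1 lower, against 25.3% and 25.9% of genes there. Its 5 were NFKB1, REL, NFKBIA, NFKBIZ and TNFAIP3. The table did not call RELB (adjusted p = 0.14) or NFKBIE (adjusted p = 0.0951).

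**Figure D1:**
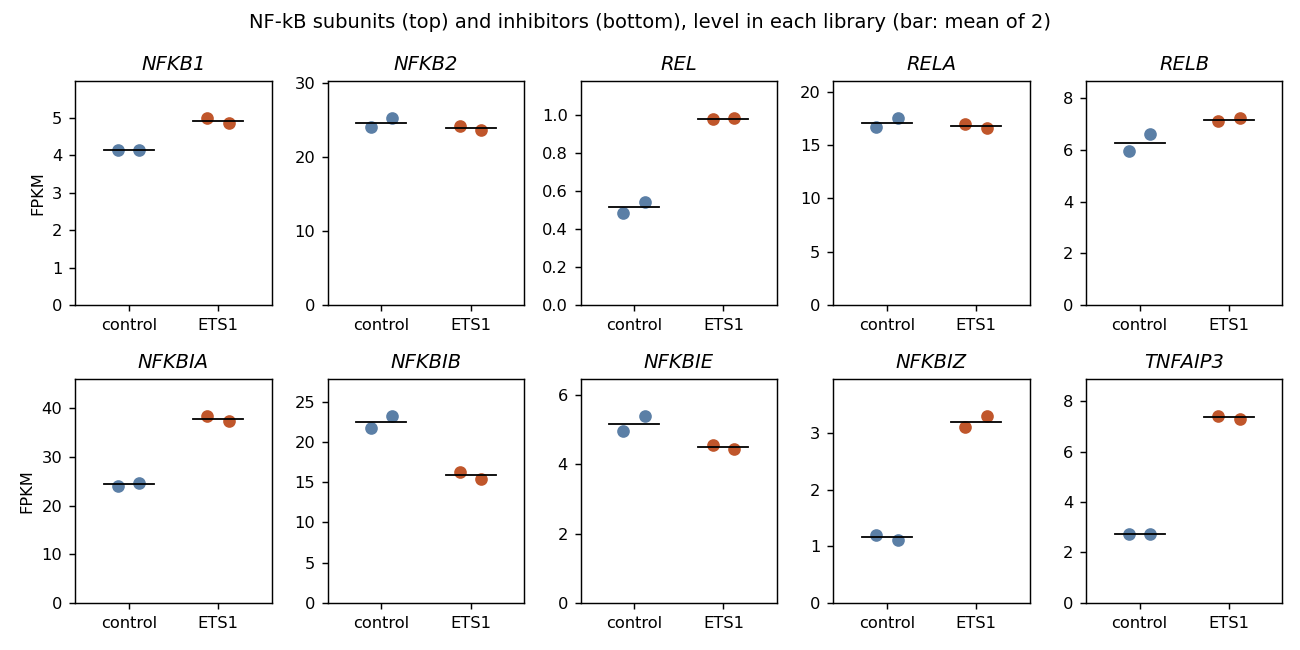
FPKM of each member (vertical axes, each from 0) in the 2 control and the 2 ETS1 libraries (points), with the group mean as a bar; subunits are in the top row and inhibitors in the bottom row. The points of NFKB2 and RELA overlap between groups, and those of the other 8 members do not.

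The inhibitors are described first. NFKBIA (ENSG00000100906.10, chromosome 14, 35401511 to 35404749, minus strand, GENCODE 29 on GRCh38) encodes IkB-alpha, the fast-acting inhibitor of RELA dimers. It had 24.1 and 24.6 FPKM in the controls and 38.4 and 37.4 FPKM in the ETS1 libraries. Both ETS1 libraries were above both controls. The ratio was 1.56, and the log2 change was 0.62 (SE 0.029, limma adjusted p = 0.000482). In the controls its level could not be told apart from that of NFKB2, and in the ETS1 libraries it was the most abundant of the 10 transcripts.

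TNFAIP3 (ENSG00000118503.14, chromosome 6, 137867188 to 137883312, plus strand) encodes A20, a ubiquitin-editing enzyme that shuts off signalling upstream of IKK. It had the largest log2 change of the tested members. Its level was 2.72 and 2.73 FPKM in the controls and 7.41 and 7.31 FPKM in the ETS1 libraries. The ETS1 values were 2.70 times the control values on average, and replicates within a group lay close together. The log2 change was 1.16 (SE 0.037, limma adjusted p = 0.000417), from 553 and 607 reads against 2135 and 2079.

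NFKBIZ (ENSG00000144802.11, chromosome 3, 101827991 to 101861022, plus strand) encodes IkB-zeta. It had 1.20 and 1.12 FPKM in the controls and 3.10 and 3.30 FPKM in the ETS1 libraries. The groups lay apart, with a ratio of 2.75, the highest of the 10 members. The log2 change was 0.96 (SE 0.057, limma adjusted p = 0.000605). The 80 tested protein-coding genes nearest to it on chromosome 3 had a median change of 0.22, and with that median removed the change was 0.73. The authors' deposited table, which has no pseudocount, gives NFKBIZ a log2 fold change of 1.42 and TNFAIP3 one of 1.40.

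The other 2 inhibitors went the opposite way. NFKBIB (ENSG00000104825.16, chromosome 19, 38899700 to 38908893, plus strand) encodes IkB-beta, a slower inhibitor of the same dimers. It had 21.7 and 23.2 FPKM in the controls and 16.3 and 15.4 FPKM in the ETS1 libraries. It fell by 0.48 on the log2 scale (SE 0.048, limma adjusted p = 0.00158). Both ETS1 libraries were below both controls, and the median of its 80 neighbours on the chromosome was 0.02. The change stayed past the threshold in all 16 alternative analyses, with an adjusted p of at most 0.0157.

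NFKBIE (ENSG00000146232.16, chromosome 6, 44258166 to 44265788, minus strand) encodes IkB-epsilon. It had 4.96 and 5.39 FPKM in the controls and 4.55 and 4.44 FPKM in the ETS1 libraries. The groups did not overlap, but the gap between them was no larger than the gap between the controls. The log2 change was -0.17 with a limma adjusted p of 0.0371, and 8 of 15 alternatives kept it past the threshold. It was lost without control replicate 2 (adjusted p = 0.111), ETS1 replicate 1 (0.104) or ETS1 replicate 2 (0.152), and with a trend on gene length and GC content removed the change was -0.026.

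Promoter sequences are printed for the 4 members with the largest FPKM ratios, NFKBIZ, TNFAIP3, REL and NFKBIA, a choice made on these same values. The sequences below are the bases upstream of the RefSeq start (GRCh38.p14), 5′ to 3′ on the gene's strand, and end before it or at most 30 bases into the GENCODE gene. Capitals mark matches to the kappaB consensus, the DNA element that NF-kB dimers bind, on either strand. They cover chr14:35404750-35404999 for NFKBIA, chr6:137867009-137867217 for TNFAIP3, chr3:101827740-101827989 for NFKBIZ and chr2:60881324-60881550 for REL.
NFKBIA: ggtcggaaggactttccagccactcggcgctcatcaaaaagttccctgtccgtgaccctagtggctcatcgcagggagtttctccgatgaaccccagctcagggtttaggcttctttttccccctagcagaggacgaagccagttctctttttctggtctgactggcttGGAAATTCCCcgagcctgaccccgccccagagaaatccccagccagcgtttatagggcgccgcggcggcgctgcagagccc
TNFAIP3: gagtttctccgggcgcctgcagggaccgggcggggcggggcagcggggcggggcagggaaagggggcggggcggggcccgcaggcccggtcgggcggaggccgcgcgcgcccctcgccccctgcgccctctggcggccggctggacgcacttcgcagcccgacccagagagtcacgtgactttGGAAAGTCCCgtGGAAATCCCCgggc
NFKBIZ: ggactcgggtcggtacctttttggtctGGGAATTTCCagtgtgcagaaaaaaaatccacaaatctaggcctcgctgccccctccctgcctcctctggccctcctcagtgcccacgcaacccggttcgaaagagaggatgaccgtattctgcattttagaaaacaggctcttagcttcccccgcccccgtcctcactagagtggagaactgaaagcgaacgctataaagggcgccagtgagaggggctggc
REL: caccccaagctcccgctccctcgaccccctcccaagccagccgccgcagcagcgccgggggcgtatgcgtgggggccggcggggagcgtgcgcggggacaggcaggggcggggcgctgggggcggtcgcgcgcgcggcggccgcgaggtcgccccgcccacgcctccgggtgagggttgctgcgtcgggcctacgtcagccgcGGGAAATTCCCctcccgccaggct
In NFKBIA the match reads GGGAATTTCC on the strand opposite to the gene and begins 81 bases before the RefSeq start. TNFAIP3 held GGGACTTTCC and GGGGATTTCC, also on the opposite strand, 67 and 55 bases before its RefSeq start and inside the GENCODE exon that begins further upstream. In NFKBIZ the match GGGAATTTCC lay 223 bases before the start. REL held GGGAAATTCC, with GGGAATTTCC overlapping it on the other strand. These lie 47 and 46 bases before its RefSeq start, inside the GENCODE gene, which begins further upstream.

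Whole windows run from 250 bases before to 50 after a RefSeq start, and the table had 14 of them for 8 members. Entries were missing for RELB and NFKBIE. A kappaB match was present in 9 of these 14 windows, against 5.91% of all 35116 windows. The members were chosen as NF-kB genes, so matches were to be expected whatever their change. The 5.91% counts windows, and no share per gene was computed over all genes. All 5 members with windows that were higher in both ETS1 libraries, NFKB1, NFKBIA, NFKBIZ, TNFAIP3 and REL, had a match in at least 1 window, and that of NFKB1 is GGGAATTTCC, 49 bases before its start. NFKBIB, which fell, held GGGAATTTCC at chr19:38899941-38899950 in 1 of its 2 windows. NFKB2, which was not called, held matches in 2 of its 3 windows. The matches of NFKBIB and NFKB2 lie inside their GENCODE genes. RELA had none in its 2 windows, which says only that these letters are not there. CCGGAAGT, an ETS-family motif, was found in 0 of the 14 windows on either strand and in 4.14% of all windows. Its core GGAA was in 13 of the 14 windows and in 95.5% of all windows, and some copies lie inside kappaB matches, as in REL, where both GGAA copies do.

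Of the subunits, REL had the largest ratio and the others lay between 0.97 and 1.18. REL (ENSG00000162924.14, chromosome 2, 60881521 to 60931610, plus strand) encodes c-Rel, a subunit best known from lymphocytes. It was the lowest of the 10 members in both groups, with 0.485 and 0.544 FPKM in the controls and 0.981 and 0.983 FPKM in the ETS1 libraries. The ETS1 values were 1.91 times the control values on average, with 221 and 271 reads against 634 and 627. Its mean was under 1 FPKM, so it was not tested in the analysis reported here. With no filter on low values its log2(FPKM + 1) change was 0.39 with a limma adjusted p of 0.0294, in a fit that called 19.6% of 35055 genes. The authors' deposited table gives it a log2 fold change of 0.87 (adjusted p = 2.13e-09). In GENCODE 29, 43.3% of its exonic bases are shared with a non-coding transcript on the same strand, so its reads may be divided between them.

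NFKB1 (ENSG00000109320.11, chromosome 4, 102501329 to 102617302, plus strand) encodes p105, the precursor of the DNA-binding subunit p50. It had 4.15 FPKM in each control and 4.98 and 4.86 FPKM in the ETS1 libraries. Both ETS1 values were higher, by a ratio of 1.18. The log2 change was 0.20 (SE 0.038, limma adjusted p = 0.00948). The 80 tested genes around it on chromosome 4 had a median change of 0.13, and with that median removed the change was 0.073 (adjusted p = 0.149). The call was also lost without ETS1 replicate 1 (0.19, adjusted p = 0.0662).

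RELB (ENSG00000104856.13, chromosome 19, 45001430 to 45038198, plus strand) encodes the partner of the NFKB2 product in the slower branch. It had 5.95 and 6.60 FPKM in the controls and 7.11 and 7.22 FPKM in the ETS1 libraries. The groups did not overlap, and the gap between them was smaller than the spread of the controls. Its log2 change of 0.17 had a limma adjusted p of 0.0454, and 7 of 16 alternatives kept it past the threshold. It was lost without control replicate 1 (adjusted p = 0.107), ETS1 replicate 1 (0.123) or ETS1 replicate 2 (0.159).

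RELA and NFKB2 were the most abundant subunits and were not called. RELA (ENSG00000173039.18, chromosome 11, 65653596 to 65663094, minus strand) encodes p65, the main activating subunit. It had 16.7 and 17.5 FPKM in the controls and 17.0 and 16.6 FPKM in the ETS1 libraries, which overlapped. The log2 change was -0.03, with a 95% interval from -0.12 to 0.07 and a limma adjusted p of 0.552. NFKB2 (ENSG00000077150.18, chromosome 10, 102394110 to 102402529, plus strand) encodes p100, which both inhibits RELB and is processed to p52. It had 24.0 and 25.2 FPKM in the controls and 24.2 and 23.6 FPKM in the ETS1 libraries, which also overlapped. The log2 change was -0.04, with a 95% interval from -0.13 to 0.05 and a limma adjusted p of 0.36. These intervals leave room for small changes in either direction, and both signs depended on the fit.

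**Figure D2:**
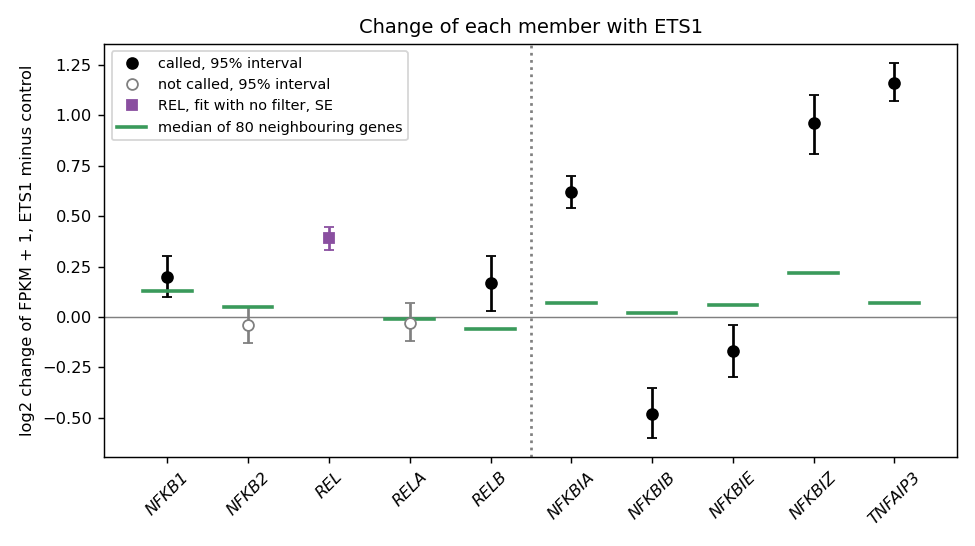
Change of each member on the log2(FPKM + 1) scale, ETS1 minus control (vertical axis), with 95% intervals from limma; REL is from the fit with no filter and has a standard error bar. Green lines are the median change of the 80 tested genes nearest on the chromosome; TNFAIP3 (1.16), NFKBIZ (0.96) and NFKBIA (0.62) lie far above theirs, and NFKB1 (0.20) lies near its own (0.13).

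The order of the levels shifted with these changes. In the controls it ran NFKB2, NFKBIA, NFKBIB, RELA, RELB, NFKBIE, NFKB1, TNFAIP3, NFKBIZ and REL. There, NFKB2 and NFKBIA overlapped and all other neighbours in the order lay apart. In the ETS1 libraries TNFAIP3 stood in place 5 where it had been in place 8, just above RELB (7.36 ± 0.0683 against 7.16 ± 0.0764 FPKM, SD, n = 2). NFKBIB went from place 3 to place 4, below RELA. No libraries of neighbouring genes overlapped in the ETS1 group.

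Summed over the 5 subunits, the level was 51.3 and 53.9 FPKM in the controls and 54.2 and 53.2 FPKM in the ETS1 libraries, and the groups overlapped. Summed over the 5 inhibitors, it was 54.7 and 57.0 FPKM in the controls and 69.8 and 67.9 FPKM in the ETS1 libraries, which did not. The ratio of inhibitor to subunit transcripts was 1.06 ± 0.00567 in the controls and 1.28 ± 0.00736 in the ETS1 libraries (SD, n = 2). An exact two-sided permutation test of these 4 values gave p = 0.333, the smallest that 6 arrangements allow. Without NFKBIA the ratio was 0.599 in the controls and 0.576 in the ETS1 libraries, so the higher ratio rests on that 1 gene.

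The make-up of the inhibitor transcripts differed more than that of the subunits. NFKBIA was 44.0% and 43.1% of summed inhibitor FPKM in the controls and 55.0% and 55.2% in the ETS1 libraries. NFKBIB was 39.8% and 40.7% in the controls and 23.4% and 22.7% in the ETS1 libraries. The ratio of NFKBIA to NFKBIB, the fast and the slow inhibitor of RELA dimers, thus went from 1.08 ± 0.0341 to 2.39 ± 0.0597 (SD, n = 2). TNFAIP3 made up 4.98% and 4.79% in the controls and 10.6% and 10.8% in the ETS1 libraries. Among the subunits, NFKB2 held 46.7% in both controls and 44.6% and 44.3% in the ETS1 libraries, and RELA 32.6% and 32.4% against 31.3% and 31.2%. REL went from 0.945% and 1.01% to 1.81% and 1.85%, and RELB from 11.6% and 12.2% to 13.1% and 13.6%.

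**Figure D3:**
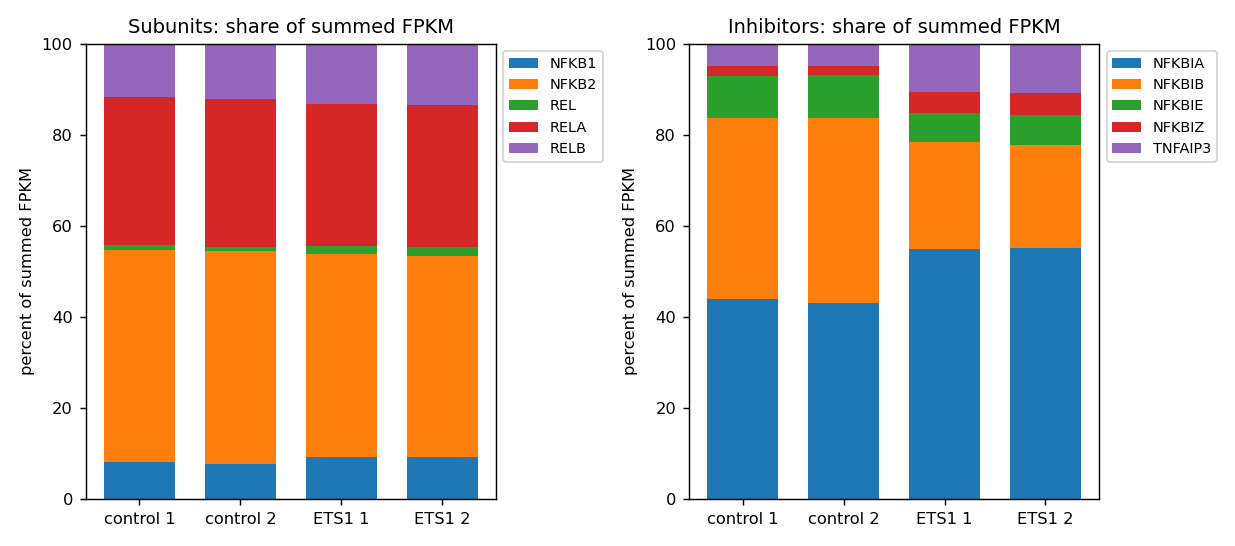
Share of each gene in the summed FPKM of the 5 subunits (left) and of the 5 inhibitors (right), in percent, for each library. NFKBIB narrows from 39.8% and 40.7% of the inhibitors in the controls to 23.4% and 22.7% in the ETS1 libraries, while the mean share of NFKB2, the subunit share that differs most, dropped by 2.28 percentage points.

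The rest of the pathway was described from 5 lists, also chosen with earlier results of these data known. The lists hold 143 genes in all, counted once each, of which 84 were tested. Of these, 38 were called higher and 11 lower, with a median log2 change of 0.12, against 30.7% and 28.4% called and a median of 0.016 over all genes tested. The filter on mean FPKM was passed by 5 of them only through the ETS1 group, where they are high, and by 1 only through the controls. The filter thus set the direction of all 6, and all 6 were called that way. Over all genes tested, 250 of 375 that passed only through the ETS1 group were called higher. Of 271 that passed only through the controls, 159 were called lower. Of the other 78 list genes, 33 were called higher and 10 lower, with a median of 0.11. Without ETS1 replicate 2 the number higher was 22, where 19.9% of all genes tested were higher. With local chromosomal medians removed the number lower was 17, where 33.2% of all genes tested were lower.

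Upstream of the members, few ligands were detected. Of the 16 ligand genes, 1 was tested (TNFSF12, not called, adjusted p = 0.0842), and 12 stayed under 0.5 FPKM in every library. TNF, the classical activator, had 0.266 and 0.176 FPKM in the controls and 0.582 and 0.569 FPKM in the ETS1 libraries. It was too low to be tested, and the groups did not overlap. LTA, a TNF relative named after its values were seen, lay the other way without overlap, at 0.982 and 0.573 FPKM in the controls and 0.501 and 0.366 FPKM in the ETS1 libraries, and was also too low to be tested. IL1A was at most at 0.0493 FPKM, and IL1B was listed at 0 in both controls and at 0.0113 and 0.0114 FPKM in the ETS1 libraries.

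Of 12 tested receptor genes, 4 were called higher and 4 lower, shares near the 30.7% and 28.4% of all genes tested, and the median log2 change was -0.05. Without TNFRSF10A, which passed the filter only through the controls, 3 were lower and the median was 0.02. The rises were small: IL18R1 (0.31), CD40 (0.22), IL17RA (0.17) and TNFRSF1A (0.14), the main TNF receptor. Local chromosomal medians around these genes were 0.05, 0.05, -0.08 and 0.15, in that order, so TNFRSF1A changed no more than its neighbours. Leaving out control replicate 2, ETS1 replicate 1 or ETS1 replicate 2 gave 1 higher call, the replicate block gave 2, and no filter gave 0. Over all genes the shares higher under these settings were 26.7%, 21.8%, 19.9%, 25.9% and 10.3%, in the same order. The falls included TNFRSF10A, a TRAIL receptor, from 2.47 and 2.48 FPKM to 0.243 and 0.234 FPKM. TNFRSF10B, the other signalling TRAIL receptor, changed by -0.48, and both lie on chromosome 8 where the local median was -0.39. NGFR (-0.54) and TNFRSF12A (-0.19) were also lower.

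Of 32 tested IKK kinases and adaptors, 16 were called higher and 5 lower, with a median of 0.12. Over all genes tested, 30.7% were higher and 28.4% lower, with a median of 0.016. Without ETS1 replicate 1 there were 9 higher, where 21.8% of all genes tested were higher. Without ETS1 replicate 2 there were 7, a share near the 19.9% of all genes tested. MYD88, the adaptor of IL-1 and Toll-like receptors, had 0.489 and 0.346 FPKM in the controls and 1.60 and 1.59 FPKM in the ETS1 libraries. It passed the filter only through the ETS1 group, which set its direction, and without it 15 were higher. IKBKE, an IKK-related kinase named after its values were seen, was too low to be tested and had the largest ratio of the list, 4.48 against 3.81 for MYD88. IRAK4, the kinase that MYD88 recruits, rose by 0.42, TAB3 by 0.45 and TRAF5 by 0.37. Of the IKK complex itself, the catalytic subunit IKBKB fell by 0.26 (limma adjusted p = 0.00546) and CHUK rose by 0.17 (limma adjusted p = 0.0476). IKBKG, the scaffold subunit, overlapped between groups at 0.431 and 0.652 against 0.803 and 0.592 FPKM and can share reads with a near-identical copy, so its value is uncertain. SHARPIN (-0.36) and TRAF2 (-0.23) were lower, in stretches of chromosomes 8 and 9 whose local medians were -0.32 and -0.39. TAB1 (-0.30) was lower with a local median of 0.00. MAP3K14, the kinase of the slower branch, was not called (0.06, limma adjusted p = 0.47).

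Of 16 tested genes among the other IkB proteins and the partners of A20, 6 were called higher, a share near the 30.7% of all genes tested, and 1 lower, with a median of 0.11. Without ETS1 replicate 2, 3 were higher, a share near the 19.9% of all genes tested. CYLD, a deubiquitinase that restrains the pathway, had 3.16 and 3.10 FPKM in the controls and 4.18 and 4.21 FPKM in the ETS1 libraries (log2 change 0.33). OTULIN (listed as FAM105B), another deubiquitinase, rose by 0.31, ZC3H12A, an RNase that cuts cytokine transcripts, by 0.33, and the A20-binding protein TNIP1 by 0.18. RNF11 was called higher by 0.43 (limma adjusted p = 0.0419), with 14.8 and 11.9 FPKM in the controls and 16.5 and 20.2 FPKM in the ETS1 libraries. Its replicates differed by more within each group than the nearest libraries of the 2 groups did. TNIP2 fell by 0.28. BCL3, an IkB relative, was not called (0.13, limma adjusted p = 0.21).

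Of 54 textbook target genes, 28 were tested, with 16 called higher and 1 lower, against 30.7% and 28.4% of all genes tested. The median log2 change of the 28 was 0.20, against 0.016 over all genes tested. Of the 16, CCL20, CXCL8, CXCL2 and CXCL3 passed the filter only through the ETS1 group, which set their direction. Among the other 24 targets, 12 were called higher and 1 lower, with a median of 0.14. Of all 13660 tested genes at 1 FPKM or more in both groups, 4144 were higher and 3898 lower, with a median of 0.01. The chemokine gene CCL20 had 0.0371 and 0.0679 FPKM in the controls, from 2 and 4 reads, and 2.80 and 3.01 FPKM in the ETS1 libraries, from 214 and 227 reads. CXCL8 (listed as IL8) had 0.370 and 0.338 FPKM in the controls and 3.06 and 3.28 FPKM in the ETS1 libraries. PTX3, an innate pattern-recognition protein, went from 3.72 and 3.51 to 13.0 and 13.3 FPKM, and CXCL2 from 0.808 and 0.769 to 2.98 and 2.79 FPKM. Of these, PTX3 was above the filter in both groups and rose by 1.62 on the log2 scale. CCND1, cyclin D1, fell by 0.78.

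Other standard targets were not called or were too low to be tested. SOD2, a mitochondrial antioxidant enzyme, was not called, at 7.18 and 6.85 FPKM in the controls and 6.70 and 7.04 FPKM in the ETS1 libraries (limma adjusted p = 0.62). BIRC3 had 0.330 and 0.187 FPKM in the controls and 0.205 and 0.179 FPKM in the ETS1 libraries, which overlapped. IL6 was at most at 0.0274 FPKM. ICAM1 had 0.0467 and 0.0794 FPKM in the controls and 0.282 and 0.219 FPKM in the ETS1 libraries, without overlap and too low to be tested. In all, 20 of the 54 targets stayed under 0.5 FPKM in every library.

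**Figure D4:**
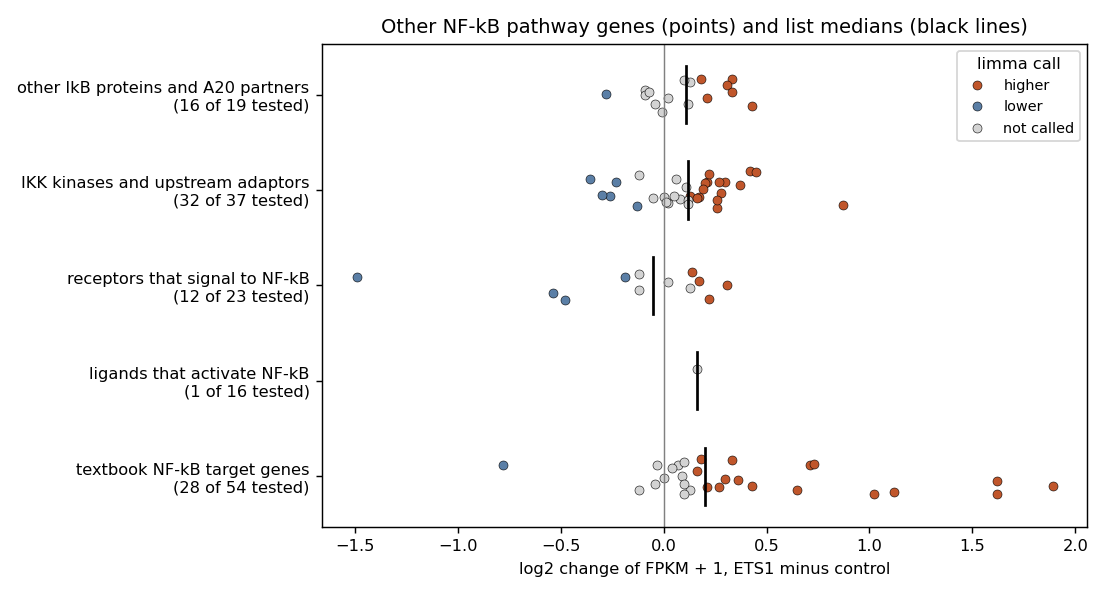
Change on the log2(FPKM + 1) scale (horizontal axis) of each tested gene of the 5 pathway lists, coloured by its limma call, with the list median as a black line. Target genes reach up to 1.89 (CCL20), and the receptor list runs down to -1.49 (TNFRSF10A).

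RefSeq promoter windows were found for 42 of the 54 target genes, 61 windows in all. A kappaB match was present in 22 of these windows, or 36.1%, against 5.91% of all windows. These genes were listed as NF-kB targets, so matches were to be expected. All 61 windows were pooled whatever the change of the gene, so the share says nothing about the ETS1 libraries. CCGGAAGT was present in 1 of the 61 windows.

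**Figure D5:**
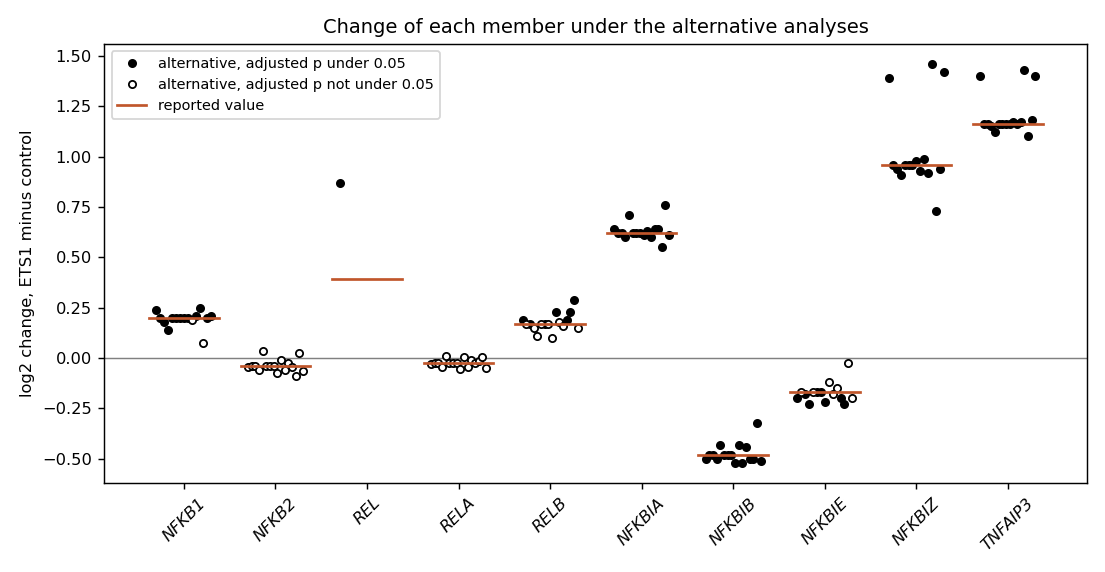
Change of each member on the log2 scale (vertical axis) as reported (orange line) and in each alternative analysis (points, filled where the adjusted p is under 0.05); the reported line of REL is the fit with no filter. The points of NFKBIA, NFKBIB, NFKBIZ and TNFAIP3 are all filled, those of NFKB2 and RELA are all open, and NFKB1, RELB and NFKBIE have both.

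Across the alternatives the members fell into 3 kinds. NFKBIA, NFKBIZ and TNFAIP3 stayed higher and NFKBIB lower, each past the threshold in every alternative that tested it, with the highest adjusted p at 0.0157. NFKB2 and RELA passed in none of 16, and REL passed in both analyses that tested it. The calls of NFKB1, RELB and NFKBIE depended on the analysis, with adjusted p-values up to 0.149, 0.159 and 0.647.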

How the data were processed

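RNA of 4 libraries of TE5 cells was compared. HISAT2, HTSeq, DESeq2 and the build GRCh38 are named in the submitters' processing notes; versions, gene annotation and strand setting are not given in the sources used here. The authors deposited FPKM per gene and library, per the file headers. In a second deposited table, the mean normalized count is a signal averaged by the authors, and its log2 fold changes with standard errors, p-values and adjusted p-values are the authors' DESeq2 output, per the file headers; shrinkage is not stated.

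Values of log2(FPKM + 1) were fitted with limma 3.58.1 in R 4.3.3 for all genes averaging 1 FPKM or more, with a group term only and a prior variance that follows the mean level, two-sided, Benjamini-Hochberg adjusted over 14306 genes. There were 2 residual and 2.84 prior degrees of freedom. The design's count test applied only to raw counts. The single-gene exact permutation test cannot go below p = 0.333. The step was tested on simulated data.

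Reads were recovered from FPKM and the mean normalized count: 99.2% of values of genes with a mean count under 100 lay within 0.05 of a whole number, and 50.1% of those over 1000. Reads of the controls varied by more than counting noise (mean chi-square 3.94 per gene, and 3.94 in the ETS1 group), so they were kept as separate samples.

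Positions are from GENCODE 29, matched by name or RefSeq synonym for 88.0% of tests. Named are all members, the 4 highest and 4 lowest called changes of each list, and 14 fixed genes; TNFSF12, LTA, CXCL3 and IKBKE were added after their values were seen. The members and lists were chosen with earlier results of these data known. Alternatives were another pseudocount (0.1), other filters (none, or 5), scalings and variance priors, the replicate block, voom, the authors' values, local chromosomal medians (40 genes each side), a length and GC trend, and leaving out each library.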

Additional observations from a re-analysis of the deposited data

How the results depend on the processing

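The changes of NFKBIA, NFKBIB, NFKBIZ and TNFAIP3 kept direction and call wherever they were tested, and over all members 119 recomputed changes kept both, 18 lost the threshold and 5 changed sign. NFKB1 lost it with the local chromosomal median removed (0.073). RELB lost it with no filter (0.17), trimmed-mean scaling (0.15), quantile normalization (0.11), no intensity trend (0.17) and the authors' values (0.15). NFKBIE lost it with no filter (-0.17), the length and GC trend removed (-0.026) and the authors' values (-0.20). The uncalled changes of NFKB2 and RELA turned positive under quantile normalization (0.035 and 0.012) and with the length and GC trend removed (0.023 and 0.007), and RELA also without control replicate 2 (0.003). The cause was not tested. Members called higher numbered 3 at a mean FPKM of at least 5, where fewer are tested; members called lower numbered 1 there, with no filter, with the length and GC trend removed and in the authors' values. The mean FPKM of at least 5, where 31.2% of all genes tested were higher and 36.5% lower, also gave 2 of 8 other IkB proteins higher, 7 of 19 kinases and adaptors, 2 of 5 receptors (and 2 lower), 6 of 9 targets and 16 of 40 over all lists. With no filter, where 10.3% of all genes were higher and 9.24% lower, 10 of 37 kinases and adaptors and 0 of 22 receptors were higher and 2 of 54 targets lower. Local medians (33.2% of all genes lower) gave 3 of 16 other IkB proteins, 3 of 28 targets and 17 of 84 list genes lower; quantile normalization (27.2%) gave 2 of 16 other IkB proteins lower, and the length and GC trend (28.2%) 2 of 28 targets. Without NFKBIA the inhibitor to subunit ratio was 0.599 and 0.576. With reads in place of FPKM, shares differed by 1.52 (NFKB1), -2.51 (NFKB2), 1.95 (REL), -1.77 (RELA) and 0.811 (RELB) percentage points.

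Leaving out 1 library at a time, members called ran from 3 to 5 higher and from 1 to 2 lower; other IkB proteins from 3 to 6 and 1 to 2; kinases and adaptors higher from 7 to 13; receptors higher from 1 to 3; all lists higher from 22 to 33, where all genes ran from 19.9% to 27.7%. The changes ran from 0.19 to 0.21 for NFKB1, 0.10 to 0.23 for RELB, -0.22 to -0.12 for NFKBIE and -0.055 to 0.003 for RELA. The lone library of an arm is then assumed to vary like the rest.

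With the replicate number as a block, RELB (0.17, adjusted p = 0.0543) and NFKBIE (-0.17, adjusted p = 0.0701) were lost, leaving 1 member lower, and 2 receptors were higher. Same-numbered libraries deviated with a correlation of -0.046 over tested genes and -0.118 over those of a mean FPKM of at least 5, so the numbers are not treated as pairs; a crossed block, chosen after seeing this, called 4488 genes higher and 4189 lower, against 4394 and 4057. Counting error limits REL most, at 9.06% between the controls.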
